A study of Mus musculus with 11 samples.

Results

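The genes described here are 40 genes of the cell cycle and of DNA replication, taken by name from a written list and found among the 54232 genes counted in isolated mouse hepatocytes. The list holds 12 genes of DNA replication, which load or build the replicative helicase, supply deoxynucleotides or form the sliding clamp, and 28 regulator, cyclin and mitotic genes. The low-count filter that precedes the tests left 13303 genes, with 39 of the 40 among them, and Cdc6, a helicase loader, was not tested.

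Hepatocytes of the adult liver rest outside the cell cycle and enter it after injury or loss of tissue. E2F transcription factors, E2F1 among them, switch on genes for the G1 to S transition, such as those for the MCM helicase and for nucleotide synthesis. A later wave for G2 and mitosis is driven by FOXM1 together with the MuvB complex, which binds the cell cycle genes homology region (CHR) of promoters. Cyclin A2 and the B cyclins then activate CDK1, Aurora and Polo-like kinases build and check the spindle, and the anaphase-promoting complex with CDC20 ends mitosis. Hepatocytes can also replicate DNA without dividing, which makes polyploid cells.

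The mice were adult males of the C57BL/6 strain. Xbp1 fl/fl mice carried the floxed Xbp1 gene intact and served as controls, and Xbp1 LKO mice had lost Xbp1, a transcription factor of the unfolded protein response, through Cre driven by the albumin promoter. Both genotypes received either chow or a diet high in fat and sugar, abbreviated HFS, for at most 6 weeks, which gave 4 groups and 11 libraries, named here flox chow 1 to 3, KO chow 1 and 2, flox HFS 1 to 3 and KO HFS 1 to 3. HFS libraries each pool 2 mice, while nothing in the labels says that a chow library pools animals, and the KO chow group has only 2 libraries. The labels do not say that libraries of 1 group came from separate cell isolations, so p-values measure the spread between these libraries.

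Promoters are shown for 4 of the genes described in full, 3 of mitosis and 1 of replication, to let the letters of the E2F and CHR elements be seen beside the levels. The sequences are the 250 bases before the annotated start, read from RefSeq on GRCm38.p6, 5′ to 3′ on the strand of the gene. Capitals mark matches on either strand to the letters CCAAT, to the CHR as TTTGAA or as TTCGAA, and to E2F elements as TTGGCGC or TTCCCGC or else as TTGCCGC or TTCGCGC. The windows are chr7:135716380-135716629 on the minus strand for Mki67, chr7:80294226-80294475 on the plus strand for Prc1, chr3:135212313-135212562 on the plus strand for Cenpe and chr1:128359706-128359955 on the minus strand for Mcm6.
Mki67: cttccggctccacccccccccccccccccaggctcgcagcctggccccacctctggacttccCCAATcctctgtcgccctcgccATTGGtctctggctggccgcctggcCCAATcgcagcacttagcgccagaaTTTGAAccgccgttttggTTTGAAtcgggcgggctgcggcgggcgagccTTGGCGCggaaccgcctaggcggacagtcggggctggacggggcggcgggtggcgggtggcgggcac
Prc1: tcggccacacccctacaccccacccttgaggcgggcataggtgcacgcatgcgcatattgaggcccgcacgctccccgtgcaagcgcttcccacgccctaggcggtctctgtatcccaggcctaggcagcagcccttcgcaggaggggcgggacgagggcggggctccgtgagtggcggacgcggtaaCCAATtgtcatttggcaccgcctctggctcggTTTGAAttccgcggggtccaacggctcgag
Cenpe: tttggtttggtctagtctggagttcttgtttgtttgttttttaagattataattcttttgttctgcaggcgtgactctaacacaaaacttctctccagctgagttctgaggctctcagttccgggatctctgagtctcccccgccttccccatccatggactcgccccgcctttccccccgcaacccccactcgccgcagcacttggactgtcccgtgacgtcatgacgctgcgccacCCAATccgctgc
Mcm6: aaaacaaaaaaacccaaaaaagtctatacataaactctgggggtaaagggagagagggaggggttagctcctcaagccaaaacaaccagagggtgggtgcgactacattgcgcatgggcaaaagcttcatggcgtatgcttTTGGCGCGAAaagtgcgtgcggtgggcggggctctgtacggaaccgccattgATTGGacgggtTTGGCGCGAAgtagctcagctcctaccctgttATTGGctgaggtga

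Mki67 held CHR letters at 116 and 98 bases before its start and CCAAT at 188, 166 and 141 bases before it, as well as E2F letters at 67 bases before it. Prc1 held CCAAT at 62 and CHR letters at 30 bases before this start. Mcm6 held E2F letters on both strands at 2 places in this window, where the matches of the strands overlap each other, and Cenpe held CCAAT alone. The RefSeq table gave 300-base windows for 34 of the 40 genes, and Kif20a, Tpx2, Mcm4, Foxm1, Ccna2 and Aurkb had no entry. Among the genes described in full, Nusap1, E2f1 and Tk1 had windows without any of these letters. CHR letters were in the windows of 17 of 23 regulator, cyclin and mitotic genes (73.9%) and of 2 of 11 replication genes (18.2%), against 21.7% of the 27025 genes in the table. For the E2F letters the order was turned, with 7 of 11 replication genes (63.6%), 4 of 23 of the rest (17.4%) and 10.9% of all genes. CCAAT was in 72.7% and 82.6% of these gene groups and in 41.1% of all genes. These are counts of letters, with base composition not matched, and a match is not a bound site.

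Total counts were 19191032 to 23888401 per library. Xbp1 was between 194 and 301 CPM in the 6 flox libraries and between 95.7 and 135 CPM in the 5 KO libraries, with CPM for counts scaled to a common library size with TMM factors, and was counted over the whole gene and not over the deleted exon alone. Alb took 5.88% to 10.9% of the counts in flox libraries and 1.67% to 5.395% in KO libraries, so the libraries carry the defining hepatocyte marker. Genes called with an adjusted p under 0.05 in the quasi-likelihood test of edgeR, adjusted by Benjamini-Hochberg, numbered 632 for genotype on chow (4.75% of those tested), 543 for genotype on HFS (4.08%), 57 for diet in flox (0.428%), 8 for diet in KO (0.0601%) and 0 for the interaction.

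The genes differed widely in level. Per kilobase of exon, averaged over the 11 libraries, Pcna, the sliding clamp of DNA polymerases, had 5.06 CPM per kb, Tk1, thymidine kinase, 4.83, and Rrm2, the small subunit of ribonucleotide reductase, 3.01. Mcm7 followed with 2.48 and E2f1 with 1.48 CPM per kb. At the other end stood Kif23, a kinesin of the cytokinetic bridge, with 0.0246 CPM per kb, Cdc6 with 0.0403 and Melk, a mitotic kinase, with 0.0501. In raw counts, 25 of the 40 genes had over 3 counts in every library, and 15 fell to 3 counts or fewer in at least 1. All of the replication genes but Cdc6, 11 in number, were among the 25. Several mitotic genes therefore rest on few reads in the flox HFS libraries, where 7 of the 40 had 3 counts or fewer in each.

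The 28 regulator, cyclin and mitotic genes were high in the same few libraries. Their summed level was 26.1, 71.2 and 28.5 CPM in flox chow 1 to 3, and 28.1 CPM in both KO chow libraries. It was 26.5, 21.3 and 24.8 CPM in flox HFS 1 to 3, and 70.6, 80.7 and 33.1 CPM in KO HFS 1 to 3. Flox chow 2, KO HFS 1 and KO HFS 2 thus stood at more than double the other libraries' sums, and KO HFS 3 lay between. The group means were 24.2 ± 2.65 CPM in flox HFS and 61.5 ± 25.1 CPM in KO HFS (SD, n = 3 each). The 12 replication genes summed to 92.6, 110.1 and 88.9 CPM in flox chow, 96.7 and 75.2 CPM in KO chow, 90.02, 90.25 and 112.5 CPM in flox HFS and 92.2, 115.8 and 89.4 CPM in KO HFS. These sums overlapped between all groups.

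**Figure D1:**
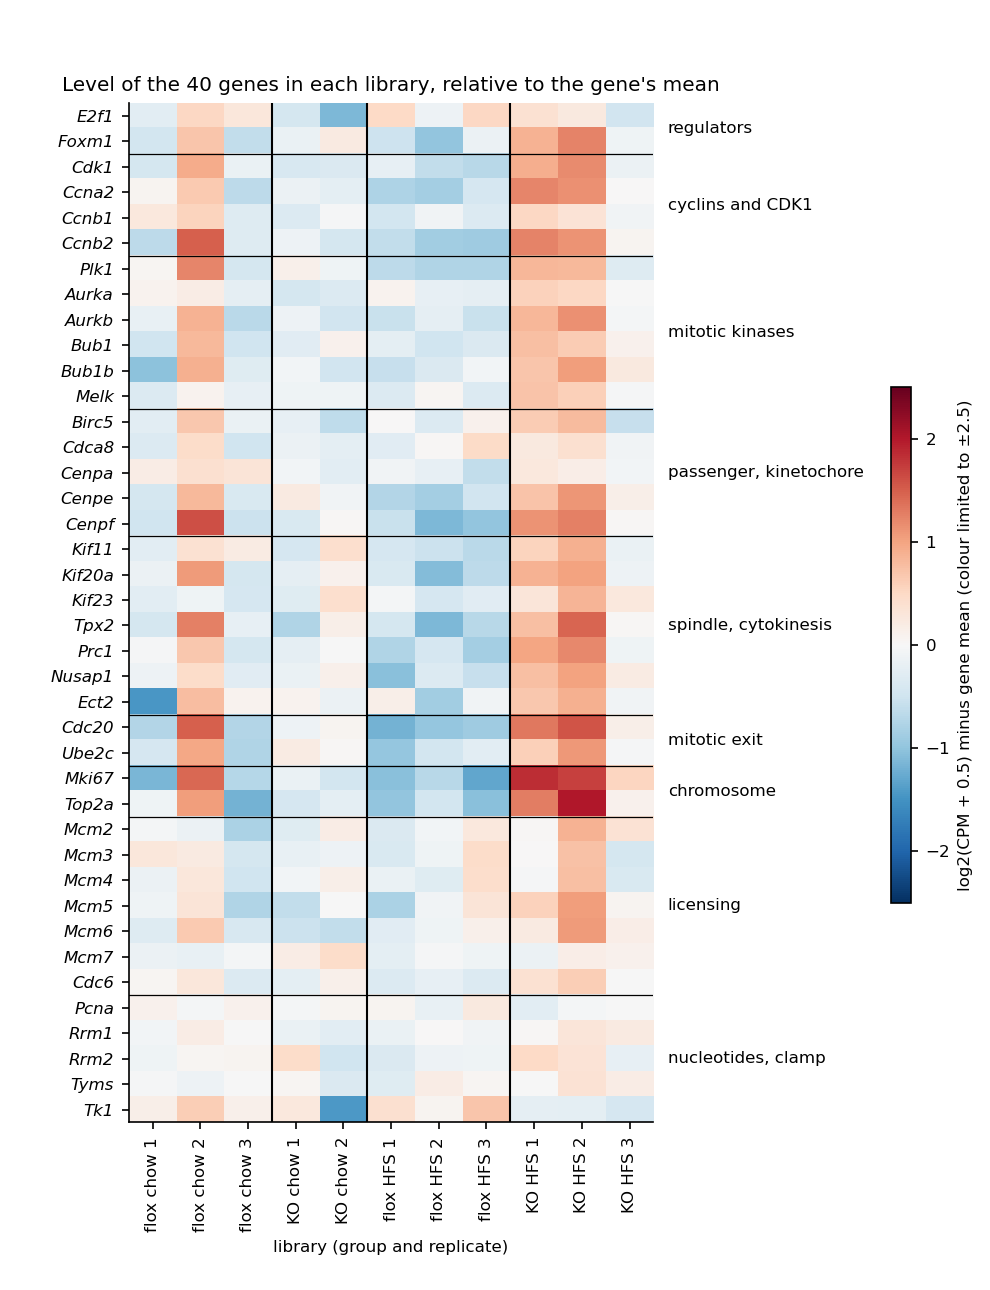
Level of the 40 genes (lines, by role) in the 11 libraries (columns, by group), drawn as log2(CPM + 0.5) minus the mean of the gene, with colours limited to ±2.5. Flox chow 2, KO HFS 1 and KO HFS 2 are red over most of the 28 regulator, cyclin and mitotic genes, whereas the 12 replication genes at the bottom vary less and without that order.

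Gene by gene, flox chow 2, KO HFS 1 and KO HFS 2 were the 3 highest of the 11 libraries for 23 of the 28 genes and for 3 of the 12 replication genes. Of the 13303 genes tested, 119 had these same libraries on top. Within the flox chow group, flox chow 2 was the highest library for 28 of the 28 genes, against 30% of all genes tested (the replication genes tested had 5 of 11). KO HFS 2 held the highest value of all libraries for 22 of the 39 tested genes, against 9.34% of all genes tested. The order was observed in the libraries and then counted, so these counts describe it and do not test it.

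On the HFS diet, transcripts of 5 genes of mitosis and its cyclins rose in Xbp1 LKO over Xbp1 fl/fl hepatocytes, and no replication gene was called. Of the 39 genes tested, 5 passed edgeR's test upwards and 0 downwards, against 1.92% of all tested genes called higher and 2.16% called lower. The 5 were Nusap1, Ccna2, Prc1, Mki67 and Cenpe. At an unadjusted p under 0.05, 25 of the 39 were higher, against 8.86% of all genes, and 0 were lower. The median log2 fold change was 2.56 over the 28 regulator, cyclin and mitotic genes (a fold of 5.89) and 0.20 over the 11 tested replication genes (a fold of 1.15), beside 0.01 over all genes tested. All KO HFS libraries lay above all flox HFS libraries for 25 of the 40 genes, Cdc6 included, against 13.6% of all genes tested, and below them for 1, Tk1, against 12.5%.

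The filter on low counts bears on these numbers. Ccnb1, Aurkb, Bub1, Melk and Kif23 reached the tests only through their counts in the KO HFS libraries, and none of these 5 was called. The other 34 tested genes reached the minimum without those libraries, 5 of them were called higher, 20 were higher at an unadjusted p under 0.05 and 20 were higher without overlap between the HFS groups. Without the 5, the median log2 fold change over the remaining 23 regulator, cyclin and mitotic genes was 2.18. The calls also rested on single libraries. By edgeR, 0 of the genes were called without KO HFS 1, without KO HFS 2, without flox HFS 1 or without flox HFS 3, with 15 to 21 at an unadjusted p under 0.05 in those fits, 1 (Nusap1) without flox HFS 2, 8 without flox chow 3 and 11 without flox chow 2. Over all genes tested, 4.04% were called in either direction without KO HFS 1, 1.40% without KO HFS 2 and 1.81% without flox HFS 1. The share was 1.73% without flox HFS 3, 2.07% without flox HFS 2, 4.85% without flox chow 3 and 3.74% without flox chow 2. With all libraries it was 4.08%. DESeq2 with all libraries called 14, all higher, against 3.12% of all genes. In bulk libraries such as these, more cells in mitosis and more of these transcripts per cell cannot be told apart.

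**Figure D2:**
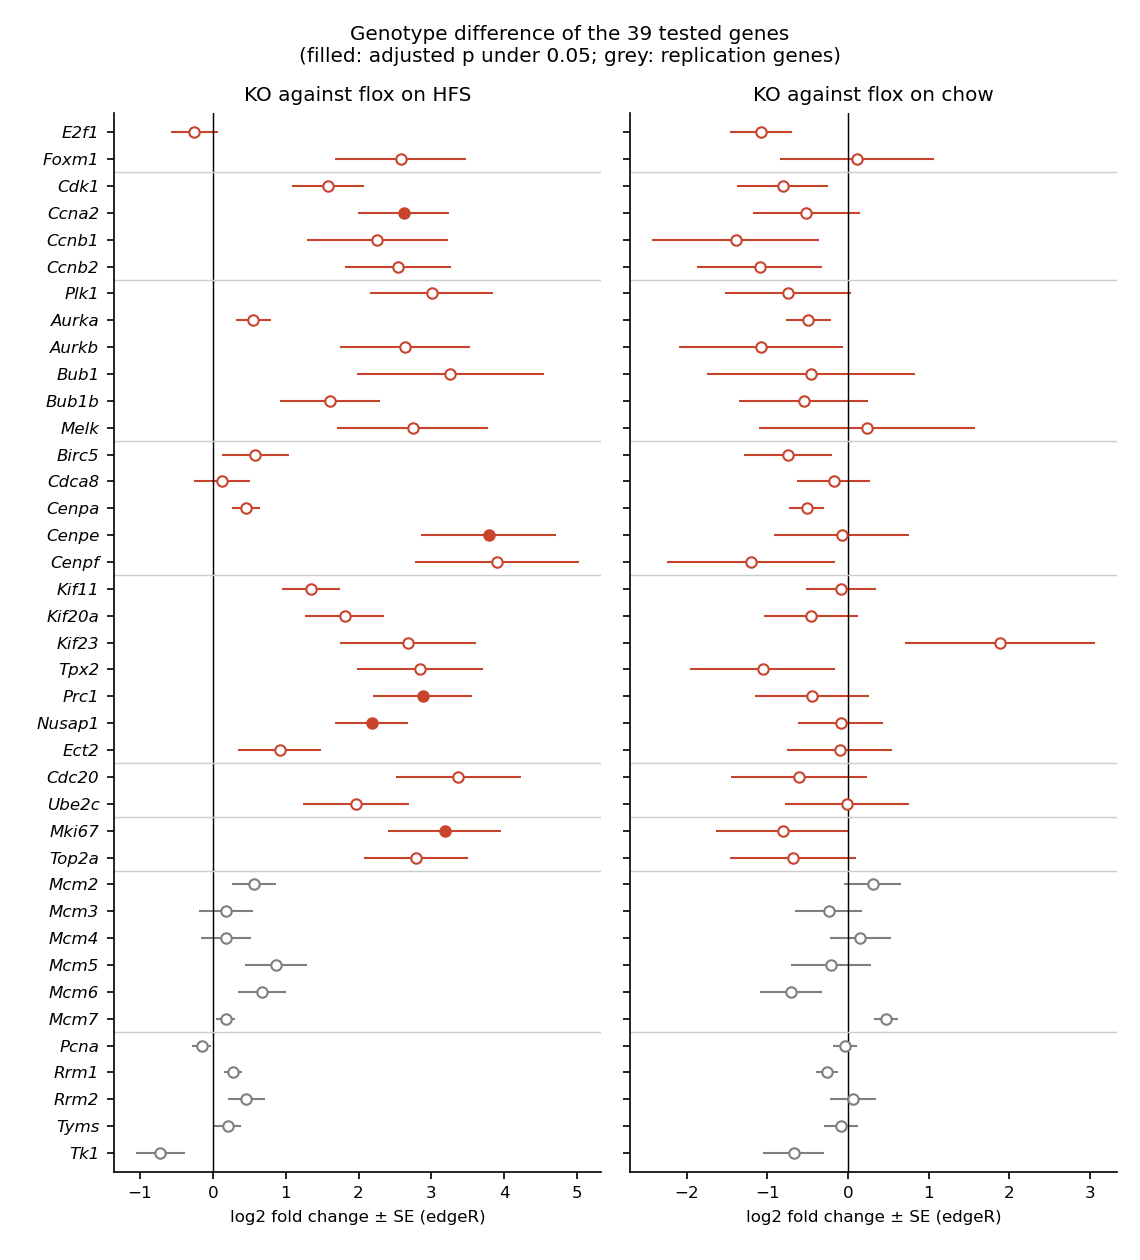
Log2 fold change of Xbp1 LKO against Xbp1 fl/fl for the 39 tested genes, by role, with standard errors from edgeR, on the HFS diet (left) and on chow (right). Filled points passed an adjusted p of 0.05, which 5 genes did on the HFS diet and 0 on chow, and the grey replication genes lie nearer to 0 than most others.

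Among the chromosome proteins, Mki67, which coats mitotic chromosomes and is the usual marker of cycling cells, was at 0.572, 0.865 and 0.392 CPM in flox HFS 1 to 3 and at 7.37, 6.66 and 2.68 CPM in KO HFS 1 to 3. The lowest KO library was well above the highest flox library. Its log2 fold change was 3.18 (SE 0.78, a fold of 9.09) with an adjusted p = 0.046 by edgeR. Top2a, the topoisomerase that untangles chromosomes, was at 0.524, 0.967 and 0.490 CPM in flox HFS and 4.40, 7.62 and 1.69 CPM in KO HFS. The groups did not overlap, but the log2 fold change of 2.79 (SE 0.72) missed the threshold with an adjusted p = 0.054 by edgeR.

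Ccna2, cyclin A2, was the one called gene among the cyclins and CDK1. It was at 0.238, 0.204 and 0.441 CPM in flox HFS 1 to 3 and 2.44, 2.31 and 0.767 CPM in KO HFS 1 to 3, which gave a log2 fold change of 2.62 (SE 0.62, adjusted p = 0.040 by edgeR). Cdk1, the kinase that drives entry into mitosis, was at 1.38, 0.916 and 0.833 CPM in flox HFS and 3.54, 4.43 and 1.46 CPM in KO HFS. Its KO libraries also stood above its flox libraries, by a small step in KO HFS 3, and its log2 fold change of 1.58 (SE 0.50) had an adjusted p = 0.11 by edgeR. Ccnb1, cyclin B1, was close to the limit of detection, at 0, 3 and 1 counts in flox HFS 1 to 3 against 12, 10 and 4 counts in KO HFS 1 to 3. Its log2 fold change was 2.26 (SE 0.97) with an adjusted p = 0.25 by edgeR. Ccnb2, another B cyclin, had a log2 fold change of 2.54 (SE 0.73, adjusted p = 0.078 by edgeR).

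Of the kinesins and spindle proteins, Prc1, which bundles the microtubules of the central spindle, was at 0.143, 0.305 and 0.0980 CPM in flox HFS 1 to 3 and 1.63, 1.97 and 0.498 CPM in KO HFS 1 to 3. No flox value reached a KO value, and the log2 fold change was 2.88 (SE 0.68, adjusted p = 0.040 by edgeR). Nusap1, which binds and steadies spindle microtubules, was at 0.143, 0.560 and 0.392 CPM in flox HFS and 1.75, 2.19 and 1.04 CPM in KO HFS. It had the smallest p of the 40 genes in this comparison, with a log2 fold change of 2.18 (SE 0.50, adjusted p = 0.035 by edgeR). Ect2, the exchange factor that starts the cleavage furrow, was at 2.33, 0.916 and 1.91 CPM in flox HFS and 3.63, 4.24 and 1.92 CPM in KO HFS. Here KO HFS 3 fell within the flox range, and the log2 fold change of 0.92 (SE 0.57) had an adjusted p = 0.47 by edgeR. The remaining 4 genes of this role, Kif11, Kif20a, Kif23 and Tpx2, had log2 fold changes from 1.34 to 2.85, and their KO HFS libraries stood above their flox HFS libraries.

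Kinetochore and passenger proteins were divided. Cenpe, the kinesin that brings chromosomes to the spindle equator, was at 0.0476, 0 and 0.147 CPM in flox HFS 1 to 3, which is 1, 0 and 3 counts, and at 0.978, 1.45 and 0.498 CPM in KO HFS 1 to 3, which is 24, 39 and 13 counts. The flox values lay at the floor of 3 counts, and the log2 fold change of 3.79 (SE 0.93, adjusted p = 0.046 by edgeR) depends on how such counts are modelled. Cenpf, an outer kinetochore protein, was at 0.238, 0 and 0.0490 CPM in flox HFS and 1.87, 2.12 and 0.613 CPM in KO HFS, with a log2 fold change of 3.90 (SE 1.126, adjusted p = 0.081 by edgeR). Cenpa, the histone variant that marks the centromere, was much more abundant, at 4.43, 4.02 and 2.89 CPM in flox HFS and 5.74, 5.32 and 4.49 CPM in KO HFS. Its highest flox value, 4.43 CPM, lay just below its lowest KO value, 4.49 CPM, and the log2 fold change was 0.45 (SE 0.19, adjusted p = 0.25 by edgeR). Birc5 and Cdca8, subunits of the chromosomal passenger complex, overlapped between the groups, with log2 fold changes of 0.58 and 0.12.

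The mitotic kinases gave no call, with 0 of 6 by edgeR, 6 of 6 at an unadjusted p under 0.05 and 1 (Plk1) by DESeq2. Of these 6, Aurkb, Bub1 and Melk passed the filter only through the KO HFS libraries, so their part of that count is no support. Plk1, the Polo-like kinase, was at 0.143, 0.102 and 0.0980 CPM in flox HFS 1 to 3 and 1.30, 1.26 and 0.307 CPM in KO HFS 1 to 3, with a log2 fold change of 3.00 (SE 0.84, adjusted p = 0.074 by edgeR). Its flox values were 3, 2 and 2 counts, so the fold carries a wide counting error. Aurka, the centrosomal Aurora kinase, was at 3.05, 2.39 and 2.35 CPM in flox HFS and 4.44, 4.24 and 2.80 CPM in KO HFS. KO HFS 3 lay inside the flox range for Aurka, and the log2 fold change was 0.56 (SE 0.24, adjusted p = 0.25 by edgeR). At the exit from mitosis, Cdc20, the activator of the anaphase-promoting complex, was at 0.191, 0.305 and 0.343 CPM in flox HFS and 3.42, 4.17 and 1.23 CPM in KO HFS. Its 3 KO libraries were all above its flox libraries, and the log2 fold change of 3.37 (SE 0.85, a fold of 10.3) had an adjusted p = 0.051 by edgeR.

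**Figure D3:**
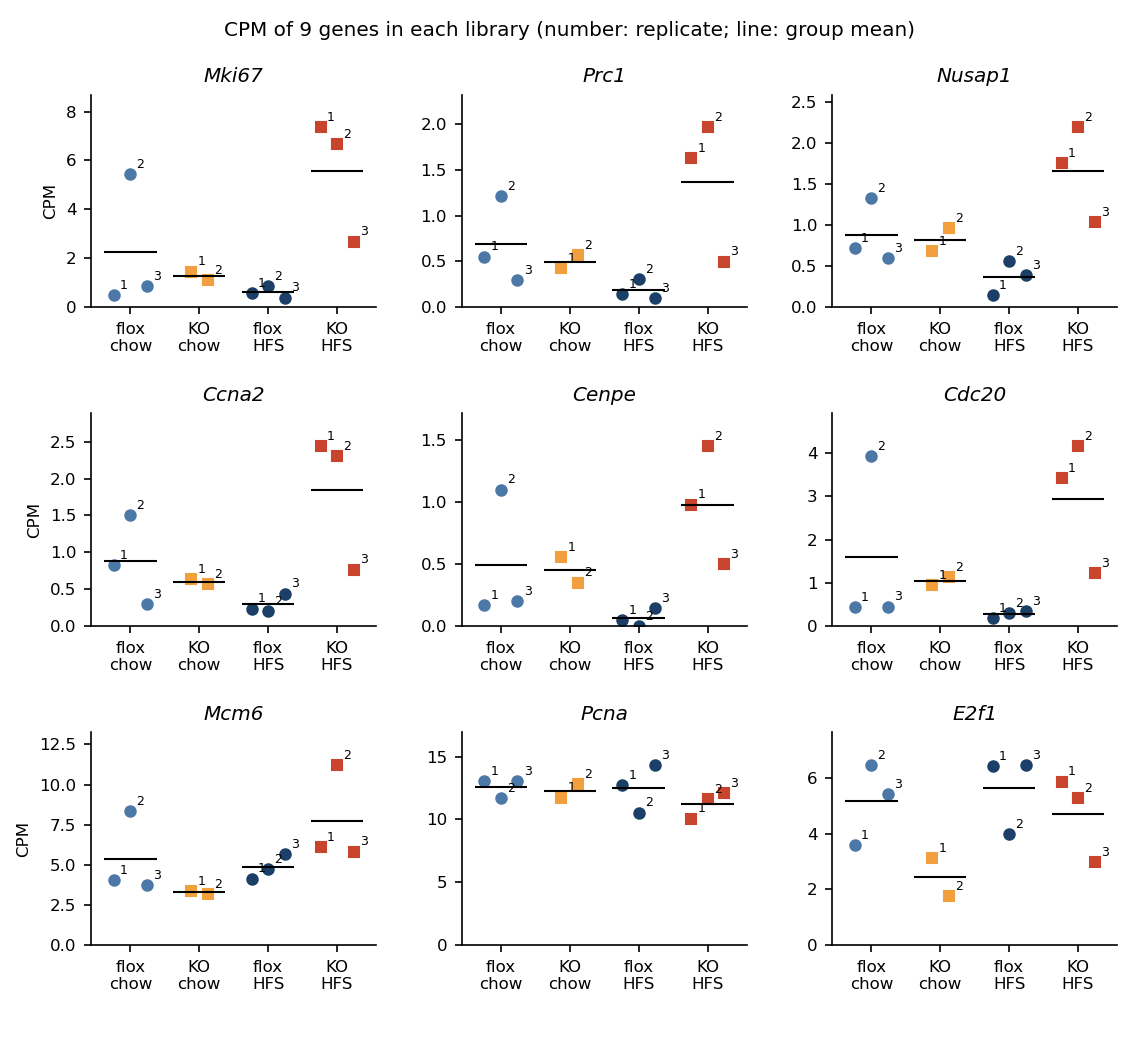
CPM of 9 genes in each library, with the replicate number beside each point and a line at the group mean. Mki67, Prc1, Nusap1, Ccna2, Cenpe and Cdc20 show KO HFS above flox HFS without overlap and flox chow 2 apart from its group, while Pcna stays between 10.1 and 14.4 CPM in every library.

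Neither transcription factor of the 2 waves was called. Foxm1 was at 0.191, 0 and 0.392 CPM in flox HFS 1 to 3 and 1.30, 1.86 and 0.422 CPM in KO HFS 1 to 3, with a log2 fold change of 2.58 (SE 0.90, adjusted p = 0.15 by edgeR), and KO HFS 3 exceeded flox HFS 3 by little. E2f1 was at 6.43, 3.97 and 6.47 CPM in flox HFS and 5.87, 5.28 and 2.99 CPM in KO HFS, which overlapped widely, with a log2 fold change of -0.26 (SE 0.32, adjusted p = 0.76 by edgeR).

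Replication genes gave no call on the HFS diet, with 0 of 11 at an adjusted p under 0.05 by edgeR, 1 of 11 (Rrm1) at an unadjusted p under 0.05 and 0 by DESeq2. With library totals Rrm1 was called higher, and Tk1 was called lower without KO chow 1, without KO chow 2, with no filter and with only the groups compared. Mcm6, a subunit of the helicase and the one whose promoter is shown above, was at 4.14, 4.73 and 5.68 CPM in flox HFS 1 to 3 and 6.11, 11.2 and 5.83 CPM in KO HFS 1 to 3. Its groups did not overlap, but KO HFS 1 and 3 were just above the flox values, and the log2 fold change was 0.67 (SE 0.33, adjusted p = 0.33 by edgeR). Mcm2 overlapped, at 2.86, 3.61 and 4.70 CPM against 3.95, 7.48 and 5.10 CPM, with a log2 fold change of 0.57 (SE 0.31, adjusted p = 0.39 by edgeR). Mcm7 was nearly level, at 9.15, 10.6 and 9.99 CPM against 9.74, 12.2 and 11.7 CPM, with a log2 fold change of 0.18 (SE 0.13, adjusted p = 0.57 by edgeR).

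In nucleotide supply, Rrm1, the large subunit of ribonucleotide reductase, was at 10.6, 12.01 and 11.1 CPM in flox HFS 1 to 3 and 12.1, 14.8 and 14.03 CPM in KO HFS 1 to 3. The step between the groups was narrow, with a log2 fold change of 0.28 (SE 0.12, adjusted p = 0.27 by edgeR). Tk1, which salvages thymidine, went the other way, at 31.3, 24.6 and 38.2 CPM in flox HFS and 19.9, 19.8 and 17.5 CPM in KO HFS. It alone of the 40 genes was lower in every KO HFS library than in every flox HFS library, with a log2 fold change of -0.72 (SE 0.33, adjusted p = 0.30 by edgeR). Pcna was at 12.7, 10.5 and 14.4 CPM in flox HFS and 10.1, 11.6 and 12.1 CPM in KO HFS, with a log2 fold change of -0.15 (SE 0.14, adjusted p = 0.64 by edgeR), and scaling by library totals turned this value to 0.11.

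On chow, loss of Xbp1 gave no call among the 39 genes. With edgeR, 0 passed an adjusted p of 0.05, against 4.75% of all tested genes, and 3 passed an unadjusted p of 0.05, against 19.3%. DESeq2 called 0, against 8.32% of all genes. All KO chow libraries lay above all flox chow libraries for 1 gene (15.4% of all genes) and below for 5 (15.9%). The median log2 fold change over the 39 was -0.46, and leaving out flox chow 2 turned it to 0.33.

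The 3 genes with the smallest p on chow were Mcm7, E2f1 and Cenpa. Mcm7 was at 9.76, 9.48 and 10.6 CPM in flox chow 1 to 3 and 12.5 and 15.1 CPM in KO chow 1 and 2, with a log2 fold change of 0.47 (SE 0.15, adjusted p = 0.097 by edgeR). E2f1 was at 3.59, 6.47 and 5.43 CPM in flox chow and 3.11 and 1.75 CPM in KO chow, a step below the flox range, with a log2 fold change of -1.08 (SE 0.39, adjusted p = 0.14 by edgeR). Cenpa was at 5.41, 6.36 and 5.98 CPM in flox chow and 4.44 and 3.85 CPM in KO chow, with a log2 fold change of -0.51 (SE 0.22, adjusted p = 0.23 by edgeR).

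For the mitotic genes the chow comparison turned on flox chow 2. Mki67 was at 0.497, 5.43 and 0.846 CPM in flox chow 1 to 3 and 1.45 and 1.09 CPM in KO chow. Both KO values lay above flox chow 1 and 3 and far below flox chow 2. Cdc20 was at 0.441, 3.93 and 0.448 CPM in flox chow and 0.939 and 1.14 CPM in KO chow, and Top2a at 1.38, 3.70 and 0.398 CPM and at 1.02 and 1.22 CPM. Cdc20 had the order of Mki67, while for Top2a flox chow 1 lay above both KO values and below flox chow 2. Flox chow 2 was above the other chow libraries for 26 of the 28 regulator, cyclin and mitotic genes. The share of all tested genes with this order over both chow groups is not given here, so the count only describes these genes. Of these genes, 3 of 28 had a log2 fold change above 0 with all libraries and 22 of 27 without flox chow 2. The 11 replication genes moved less, with 4 above 0 with all libraries and 5 without flox chow 2. Nothing else in the labels sets flox chow 2 apart, and neither direction passed the test.

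**Figure D4:**
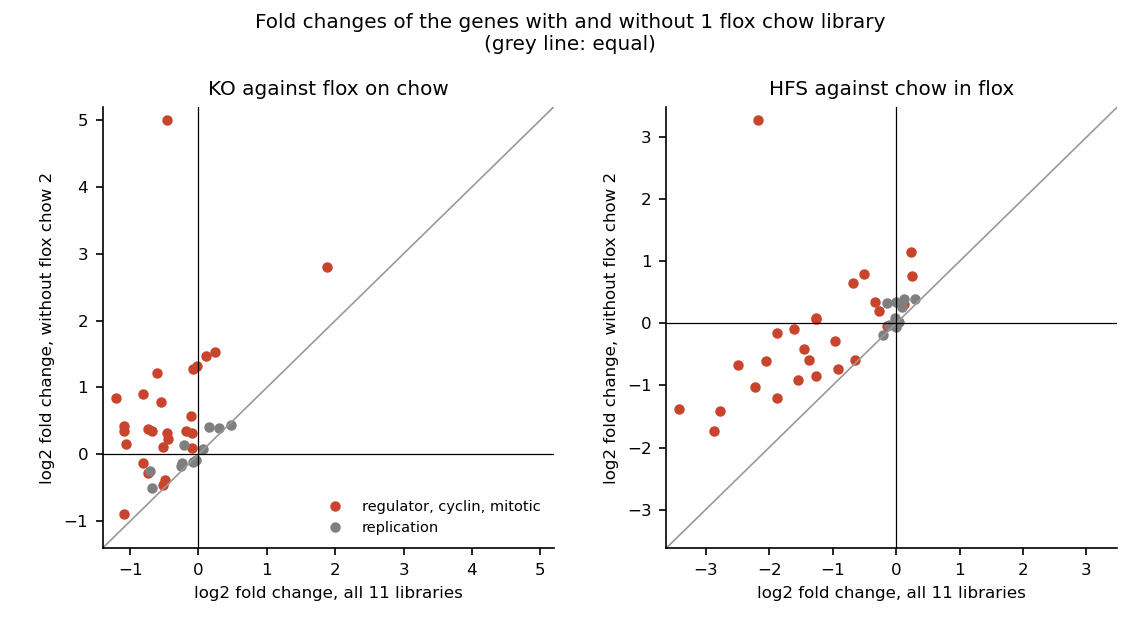
Log2 fold change of each gene with all 11 libraries (horizontal) and without flox chow 2 (vertical), for Xbp1 LKO against Xbp1 fl/fl on chow (left) and HFS against chow in Xbp1 fl/fl (right), for 38 genes tested in both fits. Most red points, the regulator, cyclin and mitotic genes, lie above the grey line of equal values. The point near 5 on the left is Bub1, whose 2 remaining flox chow libraries had 0 counts, so that its value depends on the prior count and is no bound.

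The comparisons between diets share libraries with those between genotypes, so their values are set side by side and are not independent. In Xbp1 fl/fl hepatocytes, edgeR called 0 of the 39 genes for diet, against 0.428% of all genes. At an unadjusted p under 0.05, 13 were lower on HFS and 0 higher (4.41% of all genes were lower). DESeq2 called 0, against 1.17% of all genes. All flox HFS libraries lay below all flox chow libraries for 9 of the 39 genes, against 7.34% of all genes. The 3 with the smallest p were Plk1, Cenpa and Cenpf. Plk1 was at 0.552, 1.85 and 0.249 CPM in flox chow and at the HFS values given above, with a log2 fold change of -2.87 (SE 0.86, adjusted p = 0.30 by edgeR). Cenpa had a log2 fold change of -0.64 (SE 0.20, adjusted p = 0.31 by edgeR), and Cenpf, at 0.276, 2.83 and 0.249 CPM in flox chow, one of -3.42 (SE 1.16, adjusted p = 0.37 by edgeR). The median over the 39 was -0.68 with all libraries and -0.04 over 38 without flox chow 2, where 1 gene, Cenpa, had an unadjusted p under 0.05.

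In Xbp1 LKO hepatocytes, edgeR called 0 of the 39 genes for diet, against 0.0601% of all genes, with 9 higher on HFS and 0 lower at an unadjusted p under 0.05 (7.49% of all genes were higher), and 0 by DESeq2. All KO HFS libraries lay above both KO chow libraries for 18 of the genes (16.7% of all genes) and below for 1, Mcm7 (14.4%). Aurkb, Bub1 and Melk among the 18, and Aurkb among the 9, passed the filter only through the KO HFS libraries. Their part of these counts is no support. Aurka had the smallest p, at 1.96 and 2.14 CPM in KO chow and the KO HFS values above, with a log2 fold change of 0.90 (SE 0.27, adjusted p = 0.24 by edgeR). Mcm6, at 3.37 and 3.19 CPM in KO chow, had a log2 fold change of 1.24 (SE 0.38, adjusted p = 0.25 by edgeR), and Rrm1, at 10.5 and 9.83 CPM in KO chow, one of 0.42 (SE 0.14, adjusted p = 0.27 by edgeR). The median over the 39 was 1.03. Markers of other liver cells moved in the same comparison. All KO HFS libraries lay above both KO chow libraries for 15 of 15 endothelial markers (median log2 fold change 1.53), 11 of 12 tested stellate markers (2.27) and 14 of 15 macrophage markers (1.31). By edgeR 0 of these markers were called, with 15, 9 and 7 at an unadjusted p under 0.05, and DESeq2 called 12, 5 and 0, all higher. The part of these cells in the members' values for diet in KO was not tested.

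The interaction of genotype and diet asks whether the genotype difference on HFS was larger than that on chow. EdgeR called 0 of the 39 genes, as it called 0 of all genes, and 20 of the 39 had an unadjusted p under 0.05, all with a larger value on HFS, against 3.69% of all genes. Ccnb1 and Aurkb among the 20 passed the filter only through the KO HFS libraries, so their part of that count is no support. DESeq2 called 1, Mki67, against 0.158% of all genes. For Mki67 the difference of the 2 log2 fold changes was 3.99 (SE 1.15, adjusted p = 0.66 by edgeR). The median difference over the 39 was 1.98, and without flox chow 2 it was 0.91. Markers of other liver cells also had larger values on HFS, for 12 of 12 tested stellate, 15 of 15 macrophage and 15 of 15 endothelial markers. Their median differences were 1.63, 1.28 and 0.80, with 4, 2 and 1 at an unadjusted p under 0.05 and 0 called by edgeR. The part of these cells in the members' interaction values was not tested.

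Beyond the 40 genes, 123 other genes of the same pathways were listed, and 113 of them were tested. On HFS, edgeR called 2 higher and 0 lower, with 16 higher and 3 lower at an unadjusted p under 0.05 and 6 higher and 1 lower by DESeq2. By edgeR the share called higher was close to the 1.92% of all tested genes. The shares higher at an unadjusted p under 0.05 and by DESeq2 lay above those of all genes, 8.86% and 3.12%. The 2 were Hmmr and Mad2l1, both from the list of G2 and mitotic entry and checkpoint genes. Hmmr, a microtubule-binding protein of the spindle pole, was at 0.0953, 0.153 and 0.0980 CPM in flox HFS 1 to 3 and 2.65, 2.49 and 0.728 CPM in KO HFS 1 to 3, with a log2 fold change of 4.02 (SE 0.89, adjusted p = 0.030 by edgeR). Its flox chow values of 0.276, 2.25 and 0.349 CPM and KO chow values of 0.469 and 0.524 CPM placed flox chow 2 high again. Mad2l1, a spindle checkpoint protein, was at 3.10, 3.36 and 4.41 CPM in flox HFS and 7.54, 7.81 and 6.25 CPM in KO HFS, with a log2 fold change of 0.99 (SE 0.20, adjusted p = 0.019 by edgeR). It did not share the high value in flox chow 2, where it was at 4.57 CPM beside 3.70 and 4.38 CPM in the other flox chow libraries. Both calls were lost without flox HFS 1, flox HFS 2 or KO HFS 2, and that of Hmmr also without flox HFS 3 or KO HFS 1. The median log2 fold change on HFS was 0.09 over the 113 genes.

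On chow, edgeR called 1 of the 113 higher and 0 lower, with 6 higher and 7 lower at an unadjusted p under 0.05 and 3 higher and 0 lower by DESeq2. These shares lay below those of all tested genes, 4.75% called by edgeR, 19.3% at an unadjusted p under 0.05 and 8.32% by DESeq2. The gene called by edgeR was Cdkn1a, the inhibitor p21. It was at 3.14, 2.72 and 1.99 CPM in flox chow 1 to 3 and 4.22 and 30.2 CPM in KO chow 1 and 2. Its log2 fold change was 2.72 (SE 0.70, adjusted p = 0.049 by edgeR). Most of this difference was in KO chow 2, and without that library the log2 fold change was 0.69 and was not called. It was called in 7 of 18 alternatives, with adjusted p from 4.8e-21 to 0.79. On HFS, Cdkn1a was at 1.14, 4.02 and 5.53 CPM in flox and 22.7, 17.4 and 13.3 CPM in KO libraries, without overlap, with a log2 fold change of 2.32 (SE 0.63, adjusted p = 0.067 by edgeR). The 4 highest values of this inhibitor were all in KO libraries, KO chow 2 among them. Cdkn3, a phosphatase that acts on CDKs, had a log2 fold change of 3.04 on HFS (SE 0.81, adjusted p = 0.063 by edgeR). Outside KO HFS it reached the filter's minimum in flox chow 2 alone, at 1.04 CPM. It was thus tested only through its counts in the KO HFS libraries, and its value is no support.

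The rest of those lists gave no call by edgeR. Of the G1 cyclins and CDKs, 0 of 11 were called in either genotype comparison, with 1 at an unadjusted p under 0.05 in each and 1 by DESeq2, Cdk6 on chow. Cdk6 on chow (log2 fold change 0.48, adjusted p = 0.066 by edgeR) and Ccnh, the cyclin of the CDK-activating kinase, on HFS (0.25, adjusted p = 0.25 by edgeR) had the smallest p. Of 17 pocket protein, E2F and DREAM genes tested, 0 were called, with 3 and 2 at an unadjusted p under 0.05 on chow and on HFS and 1 by DESeq2 on each diet. E2f6, a repressing E2F, had a log2 fold change of 0.37 on chow (adjusted p = 0.068 by edgeR), and Rbl2, the pocket protein p130 of resting cells, one of -0.46 on HFS (adjusted p = 0.069 by edgeR). Of 40 origin and fork genes tested, 0 were called, with 6 and 3 at an unadjusted p under 0.05 and 0 by DESeq2. Prim1, the primase subunit, on chow (-0.76, adjusted p = 0.10 by edgeR) and Rfc4, a clamp loader subunit, on HFS (0.71, adjusted p = 0.14 by edgeR) led that list, and Cdc23, a subunit of the anaphase-promoting complex, led the G2 list on chow (0.39, adjusted p = 0.17 by edgeR).

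Cells other than hepatocytes can also carry cell cycle transcripts, so their markers were summed in the same libraries. The 15 macrophage markers summed to 101.8, 24.0 and 24.6 CPM in flox chow 1 to 3, 27.1 and 40.4 CPM in KO chow, 63.7, 50.1 and 44.7 CPM in flox HFS and 64.6, 70.7 and 114.2 CPM in KO HFS 1 to 3. KO HFS sums were above flox HFS sums, as for the mitotic genes. Flox chow 2 had the lowest sum of all, close to that of flox chow 3, and KO HFS 3 the highest, which was not the order of the mitotic genes. On HFS, 0 of the 15 were called by edgeR, with 2 at an unadjusted p under 0.05 and 0 by DESeq2, and 15 of 15 had a log2 fold change above 0 with a median of 0.64. All KO HFS libraries lay above all flox HFS libraries for 7 of the 15, against 13.6% of all genes tested, and below them for 0. Clec4f, the marker of Kupffer cells, was at 4.74 CPM in flox chow 2 and at 17.1 and 4.23 CPM in flox chow 1 and 3. The 15 endothelial markers ranged from 43.1 to 241.3 CPM and were at 72.2 CPM in flox chow 2, with Pecam1 at 1.39 CPM there.

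The 14 stellate cell markers were between 14.3 and 81.8 CPM, with 19.7 CPM in flox chow 2 and the highest value in KO HFS 1. The 14 lymphocyte markers were between 2.08 CPM, in flox chow 2, and 8.63 CPM, in KO HFS 3. Among the defining markers, Cd3e had at most 2 counts in any library, and Ptprc, carried by leukocytes, was between 0.349 and 2.80 CPM. The 11 cholangiocyte markers were between 27.7 and 78.4 CPM, with Krt19 at 0 to 4 counts, and the 12 erythroid and neutrophil markers between 118.2 and 182.0 CPM. Nearly all of that last sum was 1 gene, Alas2, at 117.7 to 180.9 CPM, while the globin marker Hba-a1 had at most 2 counts in any library. By edgeR, none of these lists of other cells but the cholangiocyte one, with 2 of 4 tested genes lower on chow, gave a call for genotype. On chow, however, 15 of 15 endothelial markers were lower in KO libraries without overlap (median log2 fold change -1.37), 14 of them at an unadjusted p under 0.05 and 10 called by DESeq2. Of 12 stellate markers tested on chow, 12 had a log2 fold change below 0, 4 had an unadjusted p under 0.05, and DESeq2 called 2 lower. Of 18 hepatocyte markers, 16 had a log2 fold change below 0 on each diet. EdgeR called 2 of these lower on each diet, and DESeq2 called 6 lower on chow and 8 lower and 1 higher on HFS. In flox chow 2 the macrophage and lymphocyte sums were the lowest of the 11 libraries, but by little. They were 24.0 CPM beside 24.6 CPM in flox chow 3, and 2.08 CPM beside 2.14 CPM in KO chow 2. Of the 14 lymphocyte markers, 3 passed the low-count filter. The part of these cells in the genotype difference on HFS and in the level of flox chow 2 was not tested.

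**Figure D5:**
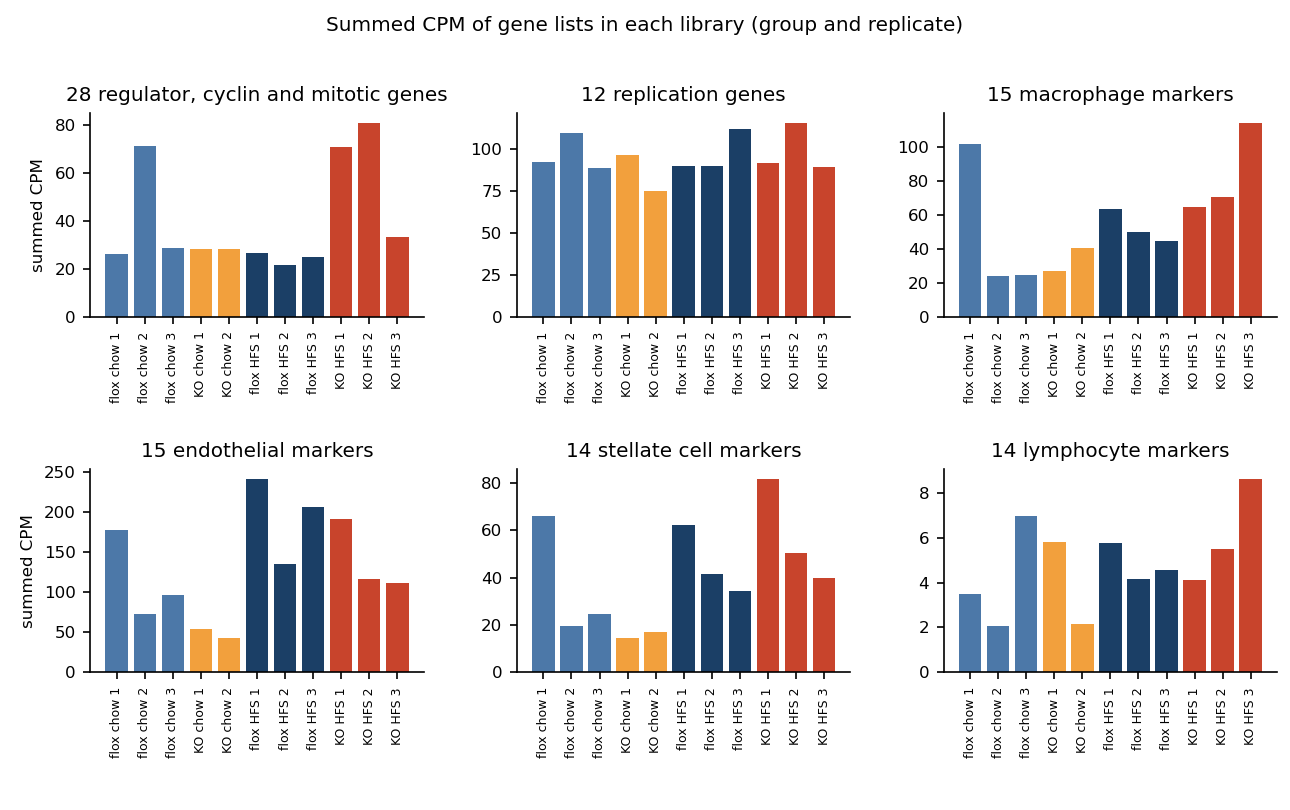
Summed CPM in each library of the 28 regulator, cyclin and mitotic genes, the 12 replication genes and 4 lists of markers of other liver cells, with bars coloured by group and each vertical axis from 0. Flox chow 2 has 71.2 CPM of the first list and 24.0 CPM of macrophage markers, the latter close to the 24.6 CPM of flox chow 3.

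Some of these genes share exon bases with a neighbour, and whether the counting used strand is not given in the sources used here. Of the 40 genes, 12 overlapped exons of another gene and 10 of these an opposite-strand gene. Prc1 shared 911 bases with Rccd1, Ccna2 510 with Exosc9 and Nusap1 172 with Oip5, a centromere protein gene that is itself a mitotic one. Exosc9 was at 8.38 to 12.4 CPM and Rccd1 at 1.48 to 3.71 CPM over the libraries, against at most 2.44 CPM for Ccna2 and 1.97 CPM for Prc1. Mcm7 shared 64 bases with Cops6, at 107.2 to 143.8 CPM, and 321 with Ap4m1, at 10.33 to 14.72 CPM. Tk1 shared 83 bases with Afmid, at 23.96 to 82.65 CPM, and Cdc20 shared 53 with Elovl1, at 30.95 to 54 CPM. The part of the neighbours' reads in these counts was not tested. On the mm10 build, Mki67 lies on the minus strand at chr7:135689784-135716361, Prc1 on the plus strand at chr7:80294450-80316259, Cenpe on the plus strand at chr3:135212537-135273611, Nusap1 on the plus strand at chr2:119618298-119651244 and Ccna2 on the minus strand at chr3:36564865-36572150. Kif20a shared 1271 bases with Cdc23, and Mki67 and Cenpe shared none.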

How the data were processed

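Poly(A) or total RNA of isolated hepatocytes was sequenced as single-end 50-base reads. The paper names a stranded mRNA kit and the labels a total RNA kit. The deposited files hold 1 column of whole-number counts per gene and library. The submitters' processing notes name cutadapt 1.13, STAR and HTSeq 0.6.1p1 on mm10, whereas the study's methods name kallisto with tximport, and which of these the authors used to make the counts could not be settled. Of 54232 gene identifiers, 54165 matched GENCODE M21, which gave symbols, positions and exon lengths. Total counts of 19191032 to 23888401 per library set the precision, and a floor of 3 counts was used as the limit of detection.

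Counts were filtered with filterByExpr (minimum count 10), scaled by TMM and tested with edgeR 4.0.16 (R 4.3.3) by the quasi-likelihood test over all 11 libraries in 4 groups, with Benjamini-Hochberg adjustment over the 13303 genes tested and a threshold of 0.05. The study's methods name DESeq2, which was run as an alternative (version 1.42.0). Printed fold changes are edgeR's, and CPM carry TMM factors. Further alternatives were RLE size factors, library totals, no filter, a filter of at least 1 CPM in 2 libraries, only the groups compared, the replicate number as a block, and each library left out. Members with full values, 22 in all, included the called genes and those with the smallest p in each genotype or diet comparison. They also included the gene of each role with the highest mean CPM over the 11 libraries. Preset were Mki67, Top2a, Cdk1, Ccnb1, Pcna, Mcm2, E2f1 and Foxm1. Other genes of the pathways were named where called or smallest in p within their list, and Ccnb2, Kif11, Kif20a, Tpx2, Birc5 and Cdca8 were named after their values were seen. The members, the pathway lists and the lists of hepatocyte, macrophage, endothelial, stellate, cholangiocyte, lymphocyte and erythroid or neutrophil markers were chosen with earlier results of these data known. Replicates of a group differed by more than counting noise (chi-square per degree of freedom of 28.0 to 101.6). Same-numbered libraries of different groups did not deviate together, so the numbers only name libraries.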

Additional observations from a re-analysis of the deposited data

Results flagged for a closer look

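For 3 of the genes, all KO libraries lay above all flox libraries on HFS and below them on chow, and the difference between the genotype effects, HFS minus chow on the log2 scale, was 1.37 for Mcm6, 0.542 for Rrm1 and 0.967 for Cenpa. For 4 of the genes, Cenpa among them, the HFS libraries lay below the chow libraries in flox and above them in KO hepatocytes, and the same difference was 5.1 for Cenpf, 2.27 for Nusap1 and 3.98 for Cdc20. The share of all tested genes with both orders is not given here, so these counts only describe the genes. For genotype, 13.6% of all tested genes were higher without overlap on HFS and 15.9% lower on chow, each order taken alone. For diet, 7.34% were lower in flox and 16.7% higher in KO. None of the 6 passed edgeR's interaction test with Benjamini-Hochberg adjustment, where their adjusted p was between 0.69 and 0.75. Each of the differences uses flox chow 2, where the summed mitotic genes were at 71.2 CPM beside 26.1 and 28.5 CPM in flox chow 1 and 3.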

How the results depend on the processing

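Several counts of called genes moved by more than 1.5 times with the processing. For genotype on HFS, 5 were called by edgeR, 14 by DESeq2, 16 with library totals, 21 with no filter on low counts (20 higher and Tk1 lower) and 11 with only the groups compared (10 higher and Tk1 lower), and with RLE size factors or the stricter filter the count was 5. Leaving out 1 library gave 0 to 11, with 1.40% to 4.85% of all genes called in those fits. For genotype on chow, 0 were called, 1 (Mcm7) with library totals, 2 (E2f1 and Tk1, lower) with no filter and 0 to 1 with 1 library left out (Tk1, lower, without KO chow 1). With no filter, 9 were called lower for diet in flox, 7 higher for diet in KO and 14 higher for the interaction, where DESeq2 called 1, while edgeR with all libraries and without any 1 of them called 0 in these comparisons. The cause of these shifts was not tested.

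Over all genes, the same alternatives also called more. Library totals raised the median log2 fold change of all genes to 0.33 on chow and 0.27 on HFS, the calls from 632 to 3000 and from 543 to 1483, and the share of calls that were higher from 36.4% to 89.5% and from 47.1% to 86.9%. DESeq2 called 1115 and 981 genes, and the fit with no filter 1507 (5.79%) and 1438 (5.53%). For diet in flox, diet in KO and the interaction, the fit with no filter called 499 (1.92%), 722 (2.78%) and 269 (1.03%) of all genes. With only the groups compared, 809 genes (6.48%) were called on HFS. The median over the 39 genes stayed above 0 for HFS in every alternative (0.92 to 1.88), and on chow ran from -0.62 to 0.33, the last without flox chow 2. Pcna on HFS went to 0.11 with library totals. Over single-gene results under the alternatives, 742 kept direction and side of the threshold, 69 gained a call, 52 lost one and 1 reversed.

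With the replicate number as a block, 6 genes were called on HFS, Cdc20, Top2a, Nusap1, Plk1, Mki67 and Prc1. The 15 same-numbered pairs had correlations of -0.20 to 0.23, 4 of them over 0.1, so the numbers were not taken to pair libraries. KO chow 2 was numbered by its title, while its deposited data carry the number 3, and with that number its correlations with flox chow 3, flox HFS 3 and KO HFS 3 were -0.147, -0.138 and 0.249. Depth limits the 15 genes with 3 counts or fewer in a library.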
